A study of Mus musculus with 12 samples.

Results

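The genes described here are 10 transcripts that the ERK pathway switches on and that report or restrain its activity: the phosphatase genes Dusp4, Dusp5 and Dusp6, the Sprouty genes Spry2 and Spry4, the transcription factor genes Etv4, Etv5, Fosl1 and Egr1, and Phlda1. They were taken by symbol from the 20587 genes of the normalized count table, and were chosen with earlier results of these data known. All 10 were among the 11663 protein-coding genes with enough reads to be tested. RNA-Seq of 4T1 cells, a mouse mammary carcinoma line that is p53 null, asked how withdrawal of serine and glycine (SG) changes the response to X-rays. The 12 libraries fell into 4 groups of 3: IR -SG (medium without SG, 5 Gy), -SG (medium without SG, no radiation), IR (medium with SG, 5 Gy) and Ctr (medium with SG, no radiation), with RNA extracted at 24 h. Both media held dialysed serum, so they differed in SG only. All cultures were of 1 line in one experiment in biological triplicate, so p-values measure the spread between these cultures only.

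Growth factor receptors signal through RAS to the kinases RAF, MEK and ERK. Active ERK phosphorylates transcription factors such as ELK1, which with SRF switches on immediate early genes within minutes, and a slower set of targets follows. Many of those targets act back on the pathway: dual-specificity phosphatases remove the activating phosphates from ERK, and Sprouty proteins block the steps from receptor to RAF. Their transcripts are therefore widely read as a measure of pathway output, although no phosphorylated ERK was measured in these libraries.

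The promoters of the 3 genes whose levels moved most alike across the libraries (Dusp5, Dusp6 and Etv5, described below) are shown to let their sequences be compared. Each line gives the 250 bases before the RefSeq start of transcription (GRCm38.p6), written 5′ to 3′ on the strand of the gene. Dusp5 is on the plus strand (chr19:53528895-53529144), as is Dusp6 (chr10:99262981-99263230), and Etv5 is on the minus strand (chr16:22439571-22439820, its upstream start). For Dusp5 and Etv5 this start lies inside the gene as annotated by GENCODE, so part of each window does too. Capitals mark matches to an ETS family motif (GGAAGT on either strand) and to the CArG box, the core that SRF binds.
Dusp5: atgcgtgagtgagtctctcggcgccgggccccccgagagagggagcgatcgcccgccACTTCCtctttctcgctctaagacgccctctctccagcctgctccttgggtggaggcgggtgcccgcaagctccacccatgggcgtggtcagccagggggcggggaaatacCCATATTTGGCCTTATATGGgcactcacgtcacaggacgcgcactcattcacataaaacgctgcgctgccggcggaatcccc
Dusp6: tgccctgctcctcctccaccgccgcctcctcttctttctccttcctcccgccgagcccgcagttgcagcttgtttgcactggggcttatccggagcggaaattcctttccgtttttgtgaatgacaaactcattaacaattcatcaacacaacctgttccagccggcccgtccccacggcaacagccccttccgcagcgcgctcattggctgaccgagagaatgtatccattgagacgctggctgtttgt
Etv5: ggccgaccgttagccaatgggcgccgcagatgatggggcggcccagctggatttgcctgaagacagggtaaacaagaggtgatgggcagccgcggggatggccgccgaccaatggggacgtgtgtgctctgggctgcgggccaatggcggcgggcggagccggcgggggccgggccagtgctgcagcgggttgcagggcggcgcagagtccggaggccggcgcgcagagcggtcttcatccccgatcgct

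The Dusp5 window held 2 CArG boxes end to end, at bases -82 to -73 and -72 to -63 counted from the start of transcription, and an ETS family match on the minus strand at bases -193 to -188. A CArG box was found in 1.47% of 32851 promoter windows of the same length and GGAAGT in 19.7%. The Dusp6 and Etv5 windows held neither of these, nor CCGGAA (ETS family, in 12% of windows), TGANTCA (AP-1, 6.75%), TGACGTCA (CRE, 1.55%), GCGNGGGCG (EGR, 4.70%) or TATAAA (12.4%), all searched on both strands. The same was true of the Spry2 window. A 2nd Etv5 start held 1 GGAAGT match, at bases -217 to -212. Unlike those of the other windows, the bases checked after this start were in no GENCODE transcript of the gene. A match is a description of letters only, and no other gene of the 10 had a promoter sequence to search.

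Recovered reads per library ranged from 12540160 to 20066659 (median 16718006), and the 10 genes had between 60 (Spry4) and 2546 (Dusp6) reads in a library. Within groups, replicate pairs differed by a chi-square of 1.54 to 3.06 per gene except the pairs with -SG replicate 6, at 6.88 and 10.5, so changes that lose or gain a call without that library are given below. The summed level of 6 epithelial markers (Epcam, Cdh1 and 4 keratin genes) was 56935 to 75330 normalized counts in every library, and averaged 67911 in IR -SG, 70963 in -SG, 58109 in IR and 57063 in Ctr cells. The leukocyte markers with values used here summed to 39.9 to 114 normalized counts, nearly all of it Cd68. Fibroblast markers summed to 202 to 525, mostly Pdgfra, which averaged 411 in IR -SG, 258 in -SG, 444 in IR and 187 in Ctr cells. The epithelial sum thus averaged higher without SG and Pdgfra higher after radiation, but not all markers went that way. Krt18 averaged 14457 in -SG against 15252 in Ctr cells, and 12051 in IR -SG against 13686 in IR cells. Col1a2 averaged 16.8 in IR and 40 in Ctr cells and Dcn 1.39 and 8.62, while Col1a1 averaged 43.8 and 33.1. The part of these markers in the results was not tested. Ptprc reached at most 6.3, Dcn 14.2 and the endothelial genes Pecam1 and Cdh5 together 16.8 normalized counts, and each of these was at 0 in at least 1 library. In bulk RNA, fewer cells of a type and less RNA per cell cannot be told apart.

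Per kilobase of exon, Dusp6 was the most abundant of the 10 in Ctr cells, at 712 ± 17.8 normalized counts per kb (SD, n = 3 in all groups), followed by Etv4 at 561 ± 11.1 and Dusp4 at 472 ± 20.6. Fosl1 (438 ± 23.3), Dusp5 (407 ± 10.8), Phlda1 (354 ± 1.33), Spry2 (306 ± 22.8) and Etv5 (218 ± 2.99) lay below them. Spry4 and Egr1 were the rarest, at 52.8 ± 1.42 and 50.3 ± 2.7 per kb. In this order the libraries of Dusp4 and Fosl1 overlapped, as did those of Spry4 and Egr1. Dusp4 led in the other groups, at 476 ± 35.3 per kb in IR -SG, 419 ± 3.66 in -SG and 796 ± 18.7 in IR cells, while Dusp6 stood at 287 ± 25.4, 324 ± 21.5 and 708 ± 18.6 per kb in those groups.

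**Figure D1:**
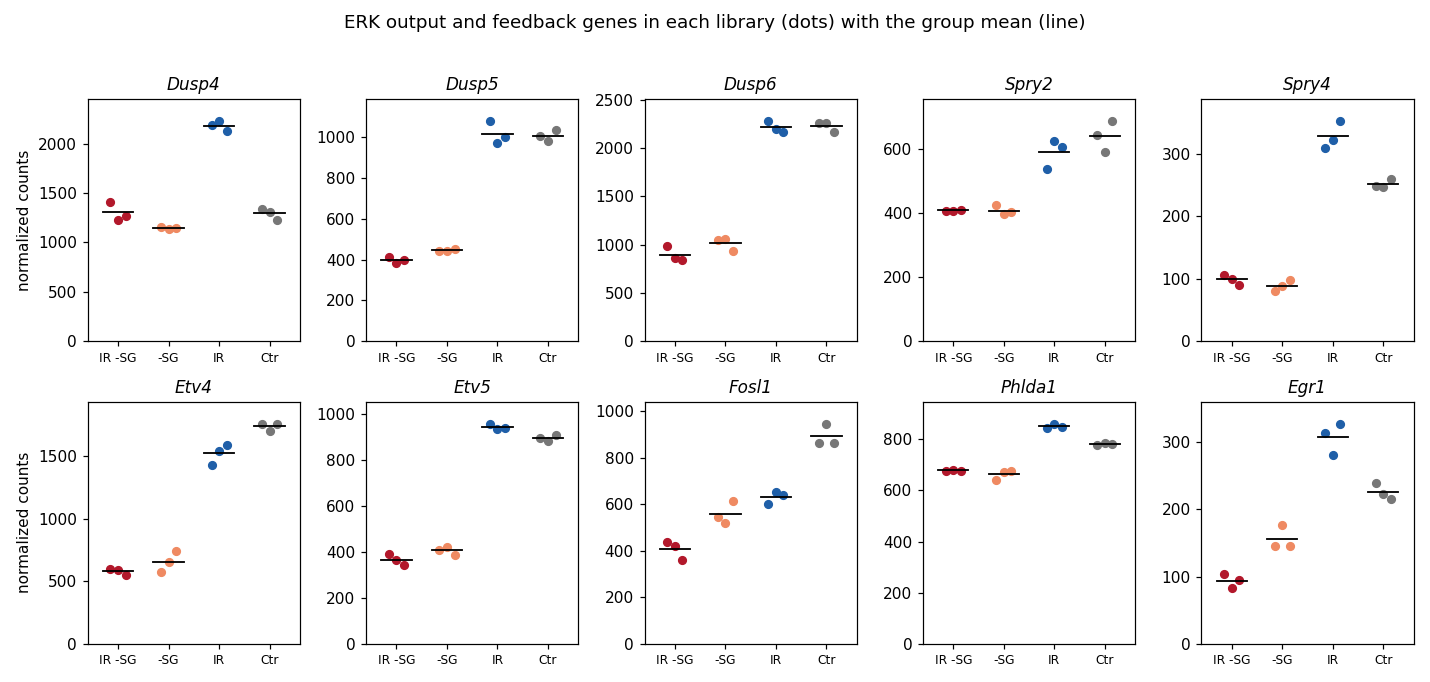
Normalized counts of the 10 genes (vertical axis, from 0) in each of the 12 libraries (dots) by group (horizontal axis), with the group mean as a line. All -SG libraries lie below all Ctr libraries for each gene, and Dusp4 in IR cells (mean 2180) stands above the other groups.

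Without SG and without radiation, all 10 genes fell, against 28.6% of all tested genes that were called lower and 30.0% called higher (limma, Benjamini-Hochberg adjusted p under 0.05). Their median log2 fold change was -0.90, from -1.49 to -0.17, where that of all tested genes was 0.01. Spry4 and Etv4 fell furthest, and Dusp4 and Phlda1 least. For each of the 10 every -SG library lay below every Ctr library, as for 29.9% of all tested genes. Fold changes here are on the scale of log2(normalized count + 1), which understates changes of rare transcripts.

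Among the phosphatases, the ERK-selective pair fell most. Dusp6 (chr10:99263231-99267489, GRCm38), whose protein acts on ERK in the cytoplasm, had 1048, 1061 and 938 normalized counts in -SG libraries, against 2266, 2258 and 2166 in Ctr libraries, a 2.2-fold lower level (log2 fold change -1.14, SE 0.06, limma adjusted p = 1.05e-10). Dusp5 (chr19:53529109-53542431), whose protein acts on ERK in the nucleus, had 442, 441 and 452 normalized counts in -SG, against 1003, 981 and 1034 in Ctr libraries (log2 fold change -1.18, SE 0.05). The Dusp5 locus has an antisense gene on the other strand, and the strand setting of the counting is not given in the sources used here. Dusp4 (chr8:34807297-34819894), a nuclear phosphatase that also acts on JNK and p38, had 1156, 1136 and 1149 normalized counts in -SG, against 1343, 1307 and 1232 in Ctr libraries. The groups did not overlap, but the change was 1.13-fold (log2 fold change -0.17, SE 0.05, limma adjusted p = 0.00744), and 3338 tested genes had a lower fold change than Dusp4, against 145 for Dusp6 and 135 for Dusp5.

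The Sprouty genes, inhibitors of receptor tyrosine kinase signalling, also fell, by unequal amounts. Spry4 had 79.9, 88.3 and 98.3 normalized counts in -SG, against 249, 246 and 259 in Ctr libraries, 2.82-fold lower (log2 fold change -1.49, SE 0.09, limma adjusted p = 1.14e-09), and 61 tested genes had a lower fold change. Spry2 (chr14:105891947-105896819) had 425, 395 and 402 normalized counts in -SG, against 642, 591 and 686 in Ctr libraries, 1.57-fold lower (log2 fold change -0.65, SE 0.07). Genes annotated as misc_RNA overlap Spry4 on the opposite strand. Spry1, not one of the 10, also fell (log2 fold change -1.35, SE 0.07).

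Etv4 and Etv5 encode ETS factors of the PEA3 family, which carry ERK signals to growth and migration genes. Etv4 (chr11:101769742-101785371) had 576, 659 and 742 normalized counts in -SG libraries, the widest relative spread of the 10 in that group, against 1760.4, 1702 and 1762 in Ctr libraries. Its level was 2.65-fold lower (log2 fold change -1.41, SE 0.07, limma adjusted p = 7.95e-11), and -1.50 to -1.32 under the other settings tried. Etv5 (chr16:22381309-22439719) had 411, 422 and 388 normalized counts in -SG, against 895, 883 and 908 in Ctr libraries, 2.2-fold lower (log2 fold change -1.14, SE 0.06).

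Fosl1 encodes FRA-1, an AP-1 subunit that ERK both induces and stabilises, and Egr1 is an immediate early zinc finger factor. Fosl1 (chr19:5447547-5455946) had 547, 518 and 613 normalized counts in -SG, against 863, 946 and 865 in Ctr libraries, 1.59-fold lower (log2 fold change -0.67, SE 0.08, limma adjusted p = 1.4e-06). Egr1 had 145, 177 and 145 in -SG, against 239, 223 and 215 normalized counts in Ctr libraries, 1.45-fold lower (log2 fold change -0.53, SE 0.10). Fosl1 overlaps Ccdc85b on the other strand, so reads of the pair may not be separable. Phlda1 (chr10:111506286-111508645), a pleckstrin homology-like protein gene induced by growth factors, changed little: 639, 672 and 677 normalized counts in -SG, against 779, 784 and 780.2 in Ctr libraries, 1.18-fold lower (log2 fold change -0.24, SE 0.04, limma adjusted p = 0.000182). A long non-coding gene, Gm28592, lies on the strand opposite Phlda1.

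The same medium change was measured a further time in irradiated cells, in libraries that share none with the comparison above. All 10 genes were again lower in IR -SG than in IR cells, where 28.1% of tested genes were called lower and 28.9% higher, with a median log2 fold change of -1.33 and a range of -1.72 to -0.33. Every IR -SG library lay below every IR library for each of them, as for 32.4% of all tested genes. Spry4 had 106, 100.1 and 90.5 normalized counts in IR -SG, against 309, 322 and 352 in IR libraries, 3.29-fold lower (log2 fold change -1.72, SE 0.09, limma adjusted p = 3.37e-10). Egr1 had 103, 83.3 and 95.4 normalized counts in IR -SG, against 314, 280.1 and 327 in IR libraries, 3.25-fold lower (log2 fold change -1.70, SE 0.10). For Egr1 this was the 2nd largest fall of the 10, where without radiation it was the 8th.

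Dusp5, Dusp6 and Etv5 kept close together in irradiated cells, with log2 fold changes of -1.35 (SE 0.05), -1.31 (SE 0.06) and -1.36 (SE 0.06) in IR -SG against IR. Dusp6 had 989.5, 858 and 846 normalized counts in IR -SG libraries, against 2281, 2204 and 2167 in IR libraries. Dusp5 had 412, 382 and 397 in IR -SG, against 1078, 972 and 999.5 normalized counts in IR libraries. These levels in each medium lay near those of cells that had not been irradiated. Etv4, at 601, 591 and 552 normalized counts in IR -SG against 1434, 1544 and 1595 in IR libraries, was 2.62-fold lower. Dusp4 showed the largest gap between its 2 medium effects after Egr1: 1413, 1228 and 1272 normalized counts in IR -SG, against 2186, 2228 and 2126 in IR libraries, 1.67-fold lower (log2 fold change -0.74, SE 0.05, limma adjusted p = 3.75e-09). Etv5 had 393, 364 and 345 normalized counts in IR -SG, against 959, 934 and 939 in IR libraries. The smallest falls of the 10 in this comparison were those of Phlda1 (log2 fold change -0.33, SE 0.04), Spry2 (-0.53, SE 0.07) and Fosl1 (-0.64, SE 0.08). Spry2 had 407, 407 and 409 normalized counts in IR -SG, against 537, 625 and 605 in IR libraries. Phlda1 had 678, 681 and 677 in IR -SG, against 844, 861 and 847 normalized counts in IR libraries.

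**Figure D2:**
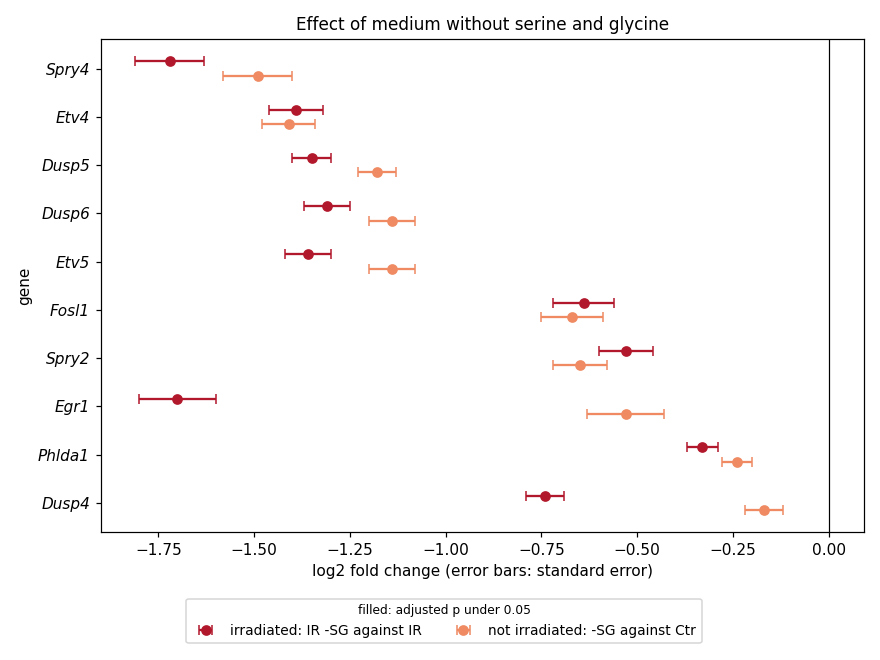
Log2 fold change (horizontal axis) of each gene (vertical axis) for medium without against with SG, in irradiated (IR -SG against IR) and in other cells (-SG against Ctr); bars are standard errors and filled dots passed the threshold. All dots lie left of 0, and Egr1 (-1.70 against -0.53) and Dusp4 (-0.74 against -0.17) show the widest gaps.

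Radiation alone did not move the 10 genes one way. In IR against Ctr cells, 4 rose (Dusp4, Egr1, Spry4 and Phlda1) and 2 fell (Fosl1 and Etv4), beside 28.9% and 24.9% of all tested genes called higher and lower. Dusp4 rose 1.68-fold (log2 fold change 0.75, SE 0.05, limma adjusted p = 5.14e-09), and 1088 tested genes had a higher fold change. Egr1 rose 1.36-fold (log2 fold change 0.44, SE 0.10, limma adjusted p = 0.00185) and Spry4 1.3-fold (log2 fold change 0.38, SE 0.09, limma adjusted p = 0.00288). In each of these 3 genes every IR library lay above every Ctr library, as for 33.3% of all tested genes.

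Fosl1 was the one of the 10 that fell clearly with radiation: 603, 652 and 641 normalized counts in IR, against 863, 946 and 865 in Ctr libraries, 1.41-fold lower (log2 fold change -0.50, SE 0.08, limma adjusted p = 5.53e-05). Only 232 tested genes had a lower fold change. The Etv4 and Phlda1 calls were weak. Etv4 had a log2 fold change of -0.19 (SE 0.07, limma adjusted p = 0.0313), with an adjusted p of 0.0506 to 0.0828 without any one of the Ctr libraries, 0.131 without IR replicate 1 and 0.0542 without IR replicate 2. Phlda1 had 0.12 (SE 0.04, limma adjusted p = 0.0244), with an adjusted p of 0.0531 to 0.0615 without any one Ctr library, 0.0742 without IR replicate 2 and 0.114 by DESeq2. The 4 others did not pass: Dusp5 (log2 fold change 0.01, SE 0.05), Dusp6 (-0.01, SE 0.06), Etv5 (0.08, SE 0.06) and Spry2 (-0.12, SE 0.07).

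In medium without SG, radiation raised 1 of the 10 genes and lowered 5, beside 23.8% and 19.3% of tested genes called higher and lower in IR -SG against -SG cells. Egr1 fell 1.65-fold (log2 fold change -0.72, SE 0.10, limma adjusted p = 4.45e-05), and every IR -SG library lay below every -SG library, as for 21.9% of all tested genes. Only 66 tested genes had a lower fold change. Fosl1 fell 1.38-fold (log2 fold change -0.46, SE 0.08, limma adjusted p = 0.000176), with 439, 420.2 and 359 normalized counts in IR -SG against 547, 518 and 613 in -SG libraries. Fosl1 was thus lower after radiation in both media.

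The other calls in this comparison were small and were lost when single libraries were left out. Dusp4 was 1.14-fold higher (limma adjusted p = 0.00799), and not called without IR -SG replicate 4 (0.0554). Dusp5, Dusp6 and Etv5 had log2 fold changes of -0.16, -0.18 and -0.15 (limma adjusted p = 0.0178, 0.0221 and 0.0381). Dusp5 was not called without IR -SG replicate 5 (0.0789), nor Dusp6 without any one of -SG replicates 4 and 5 and IR -SG replicates 5 and 6 (0.0764, 0.0771, 0.0968 and 0.105). Etv5 lost its call without any one of 8 of the 12 libraries, with an adjusted p of 0.05 to 0.164. With only the groups compared in the limma fit, Dusp5, Dusp6 and Etv5 were not called (adjusted p = 0.0682, 0.0838 and 0.14). By DESeq2 Dusp5 (adjusted p = 0.0547) and Etv5 (0.0854) were not called either. Etv4 (log2 fold change -0.17, adjusted p = 0.06) was called without -SG replicate 4 (0.00341), with TMM scaling (0.0473), by edgeR (0.0374) and by DESeq2 (0.0313). Spry2, Spry4 and Phlda1 did not pass, at log2 fold changes of 0.00, 0.16 and 0.03.

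**Figure D3:**
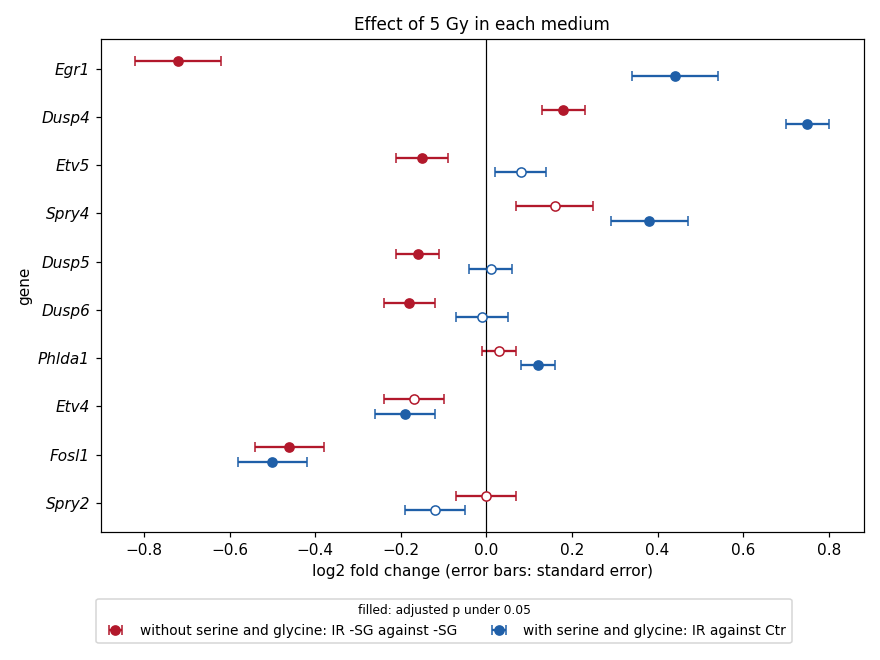
Log2 fold change (horizontal axis) of each gene (vertical axis) for 5 Gy in medium without SG (IR -SG against -SG) and with SG (IR against Ctr); bars are standard errors and filled dots passed the threshold. Egr1 lies at -0.72 without SG and 0.44 with SG, Dusp4 at 0.18 and 0.75, and Fosl1 at -0.46 and -0.50.

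Whether the radiation effect itself differed between the media was tested by the interaction term, the effect without SG less that with SG. It passed for Egr1 and Dusp4, both negative, beside 7.17% of tested genes with a negative and 4.20% with a positive call. For Egr1 it was -1.17 (SE 0.15, limma adjusted p = 8.64e-05), and 198 tested genes had a lower value. For Dusp4 it was -0.57 (SE 0.07, limma adjusted p = 8.47e-05). Had the 2 effects added on the log2 scale, the geometric mean in IR -SG cells would have been 211 normalized counts for Egr1 and 1932 for Dusp4, where 93.6 and 1302 were measured.

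The interaction of the 8 others did not pass. Etv4, Fosl1 and Spry2 had values of 0.02 (SE 0.10), 0.03 (SE 0.11) and 0.12 (SE 0.09), and Phlda1, Dusp6, Dusp5, Spry4 and Etv5 lay between -0.09 and -0.23. Without -SG replicate 6, the library that stood apart, Dusp6 (-0.23, limma adjusted p = 0.0254) and Etv5 (-0.26, limma adjusted p = 0.0207) were also called, so the count was 4 in place of 2. Etv5 also passed without IR -SG replicate 4 (limma adjusted p = 0.0378).

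Under both treatments together, 9 of the 10 genes were lower in IR -SG than in Ctr cells, beside 32.5% of tested genes called lower and 37.2% higher, with a median log2 fold change of -1.27. Etv4 fell furthest, 2.99-fold (log2 fold change -1.58, SE 0.07, limma adjusted p = 1.05e-11), and 44 tested genes had a lower fold change. Dusp5, Spry4, Dusp6, Etv5, Egr1 and Fosl1 followed, between -1.34 and -1.14, then Spry2 at -0.65 (SE 0.07) and Phlda1 at -0.20 (SE 0.04). Dusp4 was the exception, at 1304 ± 96.6 in IR -SG and 1294 ± 56.5 normalized counts in Ctr cells (log2 fold change 0.01, SE 0.05, limma adjusted p = 0.877). Its libraries overlapped between these groups.

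The genes were then compared with each other by pattern, as the root mean square difference of log2 values over the 12 libraries after subtracting each gene's Ctr mean. Etv5 and Dusp6 differed by 0.06, and Dusp5 differed from each of them by 0.07. These were the smallest of the 45 pairs, and among all tested genes that averaged at least 100 normalized counts each of the 3 had the other 2 as its nearest. The next nearest were Ier3 for Dusp5 (0.08), the collagen gene Col8a1 for Dusp6 (0.09) and vimentin, Vim, for Etv5 (0.09). Dusp4 and Etv4 were the pair furthest apart, at 1.12, and the closest of the 10 to Dusp4 was Phlda1, at 0.34. Its nearest genes were Acsbg1 (0.09), Sat1 (0.10), which encodes a polyamine acetyltransferase, and Sec14l2 (0.11).

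Fosl1 was nearest to Srm (0.08), the spermidine synthase gene, Nat10 (0.09) and Dctpp1 (0.10). Etv4 was nearest to Fkbp11 (0.10), Car12 (0.12) and Insig1 (0.13), Spry4 to P2ry2 (0.16), Htr5b (0.16) and Apln (0.17), and Spry2 to Tufm (0.07), Spsb4 (0.07) and Dagla (0.08). Egr1 had no close neighbour, its nearest being Fgfbp1 and Ccnb1ip1 (0.25 each) and Fxyd5 (0.29). Small distances are easier to reach for genes that change little, as for Phlda1 with Slc25a4 (0.03), Ogfod1 (0.04) and Rasa3 (0.04).

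Further genes of the pathway were grouped by role, and unless another comparison is named the counts are of those that passed the test in -SG against Ctr cells, where 30.0% of all tested genes rose and 28.6% fell. Each count of 0 given for these lists by limma was also 0 at an unadjusted p under 0.05, by edgeR and by DESeq2. The few genes that did not lead their list were named after their values were seen. Sprouty, Spred and other inhibitors of the pathway outside the 10 were mostly lower: of 11 tested, 9 fell and 0 rose, with a median log2 fold change of -0.58. Spry1 fell most (-1.35, SE 0.07), then Spred3 (-1.01, SE 0.08), Errfi1, an inhibitor of EGF receptor kinases (-0.91, SE 0.04), and Lrig1, which promotes receptor degradation (-0.69, SE 0.03). The list also holds RAS GTPase activators, so not all of it is feedback by ERK targets. Of these, Rasa2 (-0.68), Rasa1 (-0.37) and Dab2ip (-0.27) fell, and Nf1 had 0.02 (SE 0.10) and was not called. Lrig3 had -0.24 (SE 0.11) and was not called. In IR -SG against IR cells, 9 of the 11 fell again and 1 rose, Nf1 (0.37).

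Other delayed targets of ERK also mostly fell, 12 of 17, and 2 rose, with a median of -0.56. The uridine phosphorylase gene Upp1 fell most (log2 fold change -1.68, SE 0.07). Cyclin D1, Ccnd1, which drives entry into S phase, averaged 13618 ± 380 in -SG and 28459 ± 340 normalized counts in Ctr cells (log2 fold change -1.06, SE 0.03, limma adjusted p = 2.23e-13). Etv1, the third PEA3 factor, had -1.06 (SE 0.11), and Hbegf -0.94 (SE 0.04). The genes that rose were Phlda3 (0.39) and Plk3 (0.41), which are also known as targets of p53 in other cells. In IR -SG against IR cells 12 of the 17 fell and 3 rose.

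Ligands of the EGF receptor family, which feed the pathway from outside the cell, were lower or not called: 5 of 8 tested fell and 0 rose, with a median of -0.51. The neuregulin gene Nrg1 had a log2 fold change of -1.11 (SE 0.08), Hbegf -0.94, which is counted in both lists, Tgfa -0.58 (SE 0.05) and amphiregulin, Areg, -0.44 (SE 0.07), likewise in both lists. The remaining ligands tested were scarce. Nrg2, which fell, averaged 16.9 normalized counts in -SG and 28.2 in Ctr cells. Those not called were Btc (79.5 and 64.9), Epgn (13 and 10.1) and Nrg4 (9.46 and 10.3). Without Ctr replicate 3, 1 ligand was called higher. Of 12 receptor tyrosine kinases, 7 rose and 4 fell, with Erbb3 (1.03, SE 0.06) and Ddr1 (0.94, SE 0.04) highest and Fgfr2 (-0.59, SE 0.08) and Axl (-0.57, SE 0.03) lowest of those with at least 100 normalized counts.

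The other MAPK phosphatases split by gene. Of 8, 5 fell and 3 rose. Dusp9, which like Dusp6 prefers ERK, fell (log2 fold change -1.04, SE 0.06, limma adjusted p = 5e-10). The 3 that rose were Dusp8 (0.78, SE 0.07), Dusp10 (0.55, SE 0.05) and Dusp1 (0.56, SE 0.11), whose proteins act mainly on JNK and p38. Dusp16, of the same JNK and p38 class, was lower (-0.21, SE 0.06), as were Dusp2 (-0.67), Dusp14 (-0.31) and the ERK phosphatase Dusp7 (-0.12). Dusp1, like Egr1 and Dusp4, had a negative interaction (-0.99, SE 0.15, limma adjusted p = 0.000473), with 197 ± 7.13 normalized counts in IR -SG, 205 ± 20.3 in -SG, 266 ± 4.33 in IR and 140 ± 22.8 in Ctr cells.

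Immediate early genes, most of them for transcription factors, split as well: of 17 tested, 7 rose and 6 fell, with a median of 0.34. Of those with at least 100 normalized counts, Klf4 (1.47, SE 0.07) and the stress factor Atf3 (1.04, SE 0.06) rose most, and Ier3 (-1.22, SE 0.06) and Fosb (-1.05, SE 0.13) fell most. Their interaction was negative in 9 of 17 and positive in 0, beside 7.17% and 4.20% of all tested genes, with Klf4 at -0.88 (SE 0.10), Atf3 at -0.58 (SE 0.08) and Junb at -0.49 (SE 0.11). With no intensity trend in the fit, 5 of the 17 were called. In IR against Ctr cells 8 of the 17 rose and 0 fell, beside 28.9% and 24.9% of all tested genes, with Klf4 (0.90, SE 0.07) and Junb (0.54, SE 0.08) highest above the same level.

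No transcript of the kinase cascade itself was called lower in -SG cells. Of 10 genes for RAF, MEK, ERK and scaffolds, 0 fell and 5 rose, with a median of 0.13. Among those that rose were the ERK1 gene Mapk3 (log2 fold change 0.39), the MEK1 gene Map2k1 (0.17), Lamtor3 (0.16) and Araf (0.14). The count was 3 without Ctr replicate 2, without -SG replicate 4, by DESeq2 and with only the 2 groups compared in the fit. Among all tested genes 30.0% rose and 28.6% fell, and the shares that rose in the next 2 lists were near that. Of 14 adaptors, exchange factors and RAS genes, 5 rose, led by Gab1 (0.62) and Shc1 (0.39), and 2 fell, Nras (-0.25) and Ptpn11 (-0.19). Without -SG replicate 6, 4 of them fell. Of 13 kinases and factors that ERK acts on, 5 rose (Ets2 0.64, Srf 0.37, Mknk1 0.30, Elk1 0.28 and Mknk2 0.22 in log2 fold change) and 4 fell, led by Rps6ka2 (-0.37), the gene of a kinase that ERK activates. Cic, a repressor of Etv4 and Etv5 that ERK inactivates, had a log2 fold change of 0.05 and was not called.

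**Figure D4:**
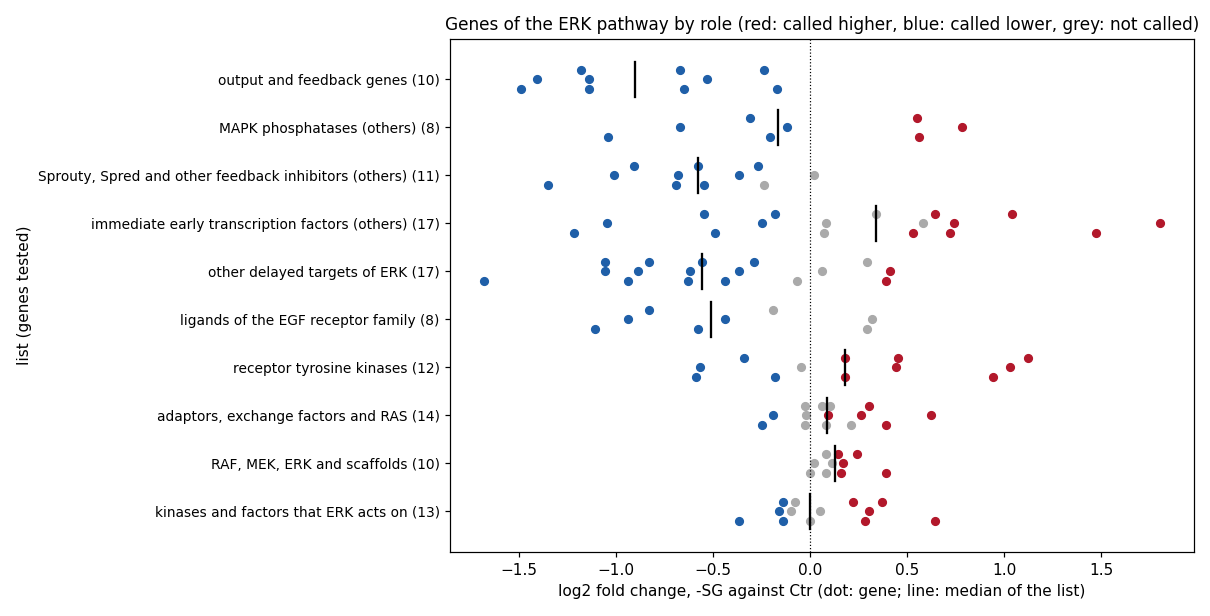
Log2 fold change in -SG against Ctr cells (horizontal axis) of each tested gene (dot) in each role list (vertical axis, number tested in brackets), with the median of the list as a black line. The medians of the 10 output genes (-0.90), the Sprouty, Spred and other inhibitors (-0.58) and the other delayed targets (-0.56) lie below 0, and that of RAF, MEK and ERK genes at 0.13.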

How the data were processed

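RNA-Seq libraries were made by the authors from total RNA with a stranded kit after removal of ribosomal RNA. Reads were checked with FastQC, aligned to GRCm38 with HISAT2 and TopHat, counted per gene with featureCounts and normalized with DESeq2, with R 3.3.1, the other versions and the strand setting being not given in the sources used here. A signal is what the authors deposited, the normalized count, which is each gene's count over its library's size factor. Whole reads were recovered from 100% of values at a tolerance of 0.001. Recovered reads (12540160 to 20066659 per library) set the precision of the rarest genes. No more than counting and culture spread is covered by the errors.

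Genes were typed with GENCODE M21, which holds 20527 of the 20587 gene IDs, 13671 of them protein-coding, and 11663 of these were tested, those that reached 10 normalized counts in 3 or more libraries. Values were fitted as log2(normalized count + 1) with limma 3.58.1 in R 4.3.3, with an intensity trend and all 4 groups in 1 fit, over 6 contrasts, and p-values were adjusted by Benjamini-Hochberg over all tested genes, with a threshold of 0.05. The interaction is the radiation effect without SG less that with SG. The steps were tested on simulated data. Alternatives were other pseudocounts, filters and scalings, a 2-fold threshold, only the groups compared, leaving out each library, a replicate block, and recovered reads in edgeR 4.0.16 and DESeq2 1.42.0.

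The 10 genes and the role lists were chosen with earlier results of these data known. From each list up to 4 genes were named, those past the threshold with the largest change whose higher group averaged 100 normalized counts or more. For each of the 10, the 3 genes of most similar pattern were named. Promoters came from RefSeq, whose table matched 4 of the 10 genes.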

Additional observations from a re-analysis of the deposited data

Results flagged for a closer look

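The effect of 5 Gy differed between the 2 media by the interaction test for Egr1 (-1.17, log2 fold change without SG less that with SG) and Dusp4 (-0.57) among the 10 genes. Of the other pathway genes named by rule, it also differed for Dusp1 (-0.99), Klf4 (-0.88), Atf3 (-0.58), Jund (-0.51), Junb (-0.49), Areg (-0.49), Pdgfra (-0.56), Gab1 (-0.48), Mras (-0.27), Ets2 (-0.22) and Mknk2 (-0.17). In all of these the log2 fold change with 5 Gy, not the level, was lower without SG. For Axl (0.28), Erbb2 (0.21) and Lrig1 (0.20) that fold change was higher without SG. The Jund and Mknk2 values passed narrowly (limma adjusted p = 0.0478 and 0.0499). Both lost their call by limma when any one of most of the libraries was left out (adjusted p up to 0.125 and 0.116). Neither was called by DESeq2 (adjusted p = 0.102 and 0.0638), nor by limma with no trend or with the replicate block. Ets2 lost its call by limma without Ctr replicate 1 (adjusted p = 0.0564) or IR replicate 3 (0.0537). By quantile normalization Axl had 0.15 and was not called (adjusted p = 0.0633), nor was Junb with no intensity trend in the limma fit (-0.49, adjusted p = 0.0565).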

How the results depend on the processing

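Of the 26 alternatives, the 2-fold threshold was left out of the tally of single genes, which held 1460 values of the 10 genes. Of these, 1417 kept their direction and side of the threshold, 36 lost a call, 7 gained one and 0 reversed. All 20 falls without SG (-SG against Ctr and IR -SG against IR) kept their call by each tool and setting except the 2-fold threshold. With at least a 2-fold change required, 5 of the 10 genes were lower in -SG against Ctr and 6 in IR -SG against IR, 0 were higher or lower in IR against Ctr and in IR -SG against -SG, and 1 passed the interaction. Over all genes this threshold left 524 higher and 196 lower in -SG, 728 and 6 in IR, 939 and 225 in IR -SG (each against Ctr), 189 and 324 in IR -SG against IR, 225 and 16 in IR -SG against -SG, and 0 and 161 in the interaction. In IR against Ctr 1 of the 10 genes was lower in place of 2 after scaling to equal totals, quantile normalization, no trend and the replicate block, and 1 to 2 with 1 library left out, Etv4 being lost. In IR -SG against -SG, 2 were lower in place of 5 with only the groups compared, and with 1 library left out 2 to 5 were lower and 0 to 1 higher. With 1 library left out, 2 to 4 of the 10 genes had a negative interaction call, against 2 with every library. With every library 836 of all tested genes (7.17%) had a negative call and 490 (4.20%) a positive one. The positive calls of all genes numbered 301 to 847 with 1 library left out. The matching range of their negative calls is not given here, so the 2 to 4 genes have no like share beside them. Libraries with the same number showed no clear pairing: their deviations correlated at -0.09 to 0.07, and those with different numbers at -0.08 to 0.15. Between Ctr and IR libraries the values were 0.03 to 0.07 for the same number and -0.04 to 0.00 for different numbers. With 3 libraries per group these values cannot exclude pairing. Under the replicate block Etv4 (limma adjusted p = 0.0556) and Phlda1 (0.0538) lost their calls in IR against Ctr. The cause of these changes was not tested. Spry4, with as few as 60 reads in a library, is the least deeply covered of the 10.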
